A study of Mus musculus with 22 samples.

Results

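The step from large to small Pre-B cells in bone marrow was followed in control mice, and 6 of the 22 libraries of the series make up the comparison. Of these, 3 came from large Pre-B cells and 3 from small Pre-B cells, and each library was a different mouse. Poly-A RNA was sequenced from adult mice that were littermate controls in a study of tet-LIN28B mice, which carry a doxycycline-inducible human LIN28B cDNA at the Col1a locus. The controls carried the Rosa26 reverse tetracycline transactivator (rtTAm2) without that cDNA, and both genotypes were fed for 10 days on chow with doxycycline at 200 mg/kg, so the controls share the transactivator and the drug. Males and females were used without distinction. The sort gate included CD93+ IgM- and cKIT-, after depletion of cells with CD3, TER119 or GR1, and large and small cells were split by forward scatter. Size is thus part of how the stages were defined, and no transcript was used to choose them. The 7 tet-LIN28B Pre-B libraries (4 large, 3 small) entered a single test at the end, and 4 control libraries of large Pro-B cells are given as levels.

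A large Pre-B cell has joined an immunoglobulin heavy chain and shows it on the surface with the surrogate light chain, the pair VPREB1 and IGLL1, as the pre-B cell receptor. Signals of that receptor and of interleukin 7 drive a few rounds of division. The cell then stops dividing, becomes small, and opens the light chain loci to the RAG recombinase. MYC and the D-type cyclins carry the division, whereas FOXO1 and Kruppel-like factors are known for genes of resting lymphocytes and for recombination. In bulk samples fewer cells of a type and less RNA per cell cannot be told apart.

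Large Pre-B libraries held 21276734 to 28072703 reads on genes, and small Pre-B libraries 32004733 to 37251032 reads. All values below are normalized read counts on 1 joint scale, on which 3 reads of a library are worth between 1.71 and 3.37. Correlations of log2 values were 0.94 to 0.96 among large Pre-B libraries, 0.98 to 0.99 among small ones and 0.73 to 0.78 between the stages, over genes and as a description. Large Pre-B control replicate 3 stood apart, with 28434 genes detected against 21929 in the lowest library of its group, and 845 RPM on olfactory and vomeronasal receptor genes against 253 and 268 in the other large Pre-B libraries. The small Pre-B libraries had 60.3 to 66.9 on fewer listed receptor genes. The B cell gene Cd79a was high in every library. This signalling chain of the B cell receptor stood at 13428, 15601 and 14312 in large Pre-B cells and 69559, 71773 and 69313 in small Pre-B cells. Kit, against which the gate selected, had values of 15.7, 57.3 and 88.3 in large Pre-B cells and 26.3, 31.3 and 34.5 in small Pre-B cells, and its groups overlapped.

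Of 14733 genes tested, 1831 were higher in small Pre-B cells by at least 4-fold at an adjusted p under 0.05 (12.4% of genes tested) and 2022 were lower (13.7%). These are called large changes below, because the stages come from different mice, depths and deposited tables, and "rose" and "fell" are used of large changes only. The groups did not overlap for 3833 of the 3853 genes, which rests on the same values as the call. The median gene had a log2 fold change of 0.05. Without large Pre-B control replicate 3 the counts were 2162 higher and 2095 lower, and 1712 of the 1831 and 1891 of the 2022 genes remained.

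Proliferation genes fell more uniformly than any other list of 10 or more tested genes. Of 76 genes of mitosis and chromosome segregation, 73 fell and none rose, with a median log2 fold change of -5.12, against 13.7% lower and a median of 0.05 over all genes. Of 60 DNA replication genes, 54 fell, with a median of -3.89. Cdk1, the kinase that starts mitosis (chromosome 10, 69335146 to 69352912), stood at 15889, 15924 and 12839.6 in large Pre-B cells and 75.4, 123 and 111 in small Pre-B cells, so the groups lay far apart (a log2 change of -7.18 ± 0.21 (SE), adjusted p = 2.91e-06). Top2a, the topoisomerase that untangles sister chromatids (chromosome 11, 98992947 to 99024199), had 58267, 48292 and 27936 in large Pre-B cells and 451, 445 and 485 in small Pre-B cells (a log2 change of -6.54 ± 0.26 (SE), adjusted p = 3.07e-06). Mki67, a coat protein of mitotic chromosomes that is used as a mark of dividing cells, had 40908, 36849 and 24102 in large Pre-B cells and 766, 746 and 850.4 in small Pre-B cells (a log2 change of -5.40 ± 0.21 (SE), adjusted p = 3.07e-06). In each of these the lowest large Pre-B library was replicate 3, and it still lay above every small Pre-B library.

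Other mitotic genes also fell. Ube2c, the ubiquitin-conjugating enzyme of the anaphase-promoting complex, fell from a mean of 10998 ± 2489 to 101 ± 29.5 (SD, n = 3 and 3), and Ccnb1, the mitotic cyclin, from 29940.5 ± 9783 to 649 ± 41.5. Cdca5, which holds sister chromatids together, and Nusap1, a spindle protein, had log2 fold changes of -6.98 and -6.94. The members of the mitosis list without a large change were Pttg1, Cks2 and Cdc25b, with 0.10, -0.77 and -1.99, named here after their values were seen. In the replication list Mcm5, a subunit of the replicative helicase, fell from 30236 ± 7292 to 1065 ± 124. Mcm10, of the same list, had a log2 fold change of -5.76. Rrm2, the ribonucleotide reductase subunit that supplies deoxynucleotides, fell from 54407 ± 16063 to 849 ± 186. Pcna, the sliding clamp of the polymerases, kept a mean of 1668 in small Pre-B cells, from 15411.

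The windows before the start sites of 4 of these genes are shown because the mitotic and replication lists differed in which short motifs they hold. Each runs over the 160 bases before the start that the RefSeq table gives (GRCm38.p6), without the bases that lie inside the gene's own RefSeq span (41 for Mcm5 and 10 for Top2a), 5′ to 3′ on the gene's strand, with capitals on TTTGAA or TTCGAA (the cell cycle homology region), CCAAT, and TTTCGCGC (an E2F site), each on either strand.
Cdk1 (chr10:69352913-69353072, minus strand): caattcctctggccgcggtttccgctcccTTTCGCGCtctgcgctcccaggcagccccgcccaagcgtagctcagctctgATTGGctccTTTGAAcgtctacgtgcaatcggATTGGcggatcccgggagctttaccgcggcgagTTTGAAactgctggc
Top2a (chr11:99024200-99024349, minus strand): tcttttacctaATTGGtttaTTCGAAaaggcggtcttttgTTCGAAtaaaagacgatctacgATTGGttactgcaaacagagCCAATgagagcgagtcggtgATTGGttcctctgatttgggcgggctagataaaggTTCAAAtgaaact
Ube2c (chr2:164769769-164769928, plus strand): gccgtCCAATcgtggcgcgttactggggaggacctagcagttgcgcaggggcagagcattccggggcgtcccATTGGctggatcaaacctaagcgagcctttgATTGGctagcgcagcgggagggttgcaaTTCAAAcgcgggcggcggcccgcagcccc
Mcm5 (chr8:75109349-75109467, plus strand): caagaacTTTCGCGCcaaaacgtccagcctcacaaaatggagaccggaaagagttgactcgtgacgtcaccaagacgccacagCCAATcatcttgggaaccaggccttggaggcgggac
Cdk1, Top2a and Ube2c carry TTTGAA or TTCGAA letters together with CCAAT, and Cdk1 also holds the E2F letters. Mcm5 has CCAAT and the E2F letters without TTTGAA or TTCGAA. Windows of 300 bases (250 before to 50 after the start) were searched for genes with a single start in the table, of which 22862 served as background. Of 59 mitotic genes with a window, 74.6% held TTTGAA or TTCGAA, against 19.8% of all windows, and 71.2% held CCAAT, against 38.2%. Both occurred together in 36 of the 59, against 7.75% of all windows. Of 39 replication genes, 12.8% held TTTGAA or TTCGAA and 59.0% held CCAAT. The letters TTTCGCGC were in 12.8% of replication windows, 1.69% of mitotic windows and 0.328% of all. Among all genes that fell by a large change and had a window, 20.3% held TTTGAA or TTCGAA, among those that rose 16.2%, and among all genes tested 14.3%. TTTGAA or TTCGAA together with CCAAT were in 11.3% of the windows of genes that fell, 6.56% of those that rose and 6.17% of those of genes tested. These are matches of letters in a window, not mapped sites.

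**Figure D1:**
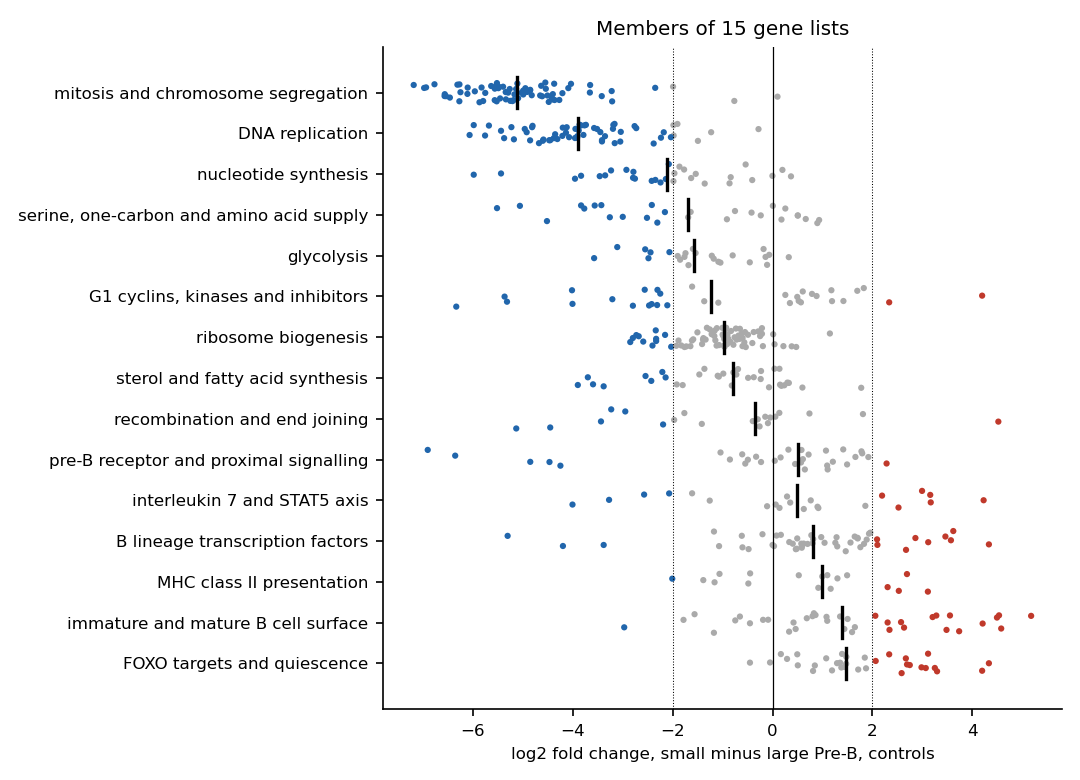
Log2 fold change from large to small Pre-B cells (x axis) of each tested member (points) of the gene lists (y axis), with a black bar at the list's median and dotted lines at 4-fold. Blue points fell and red points rose by a large change, and grey points had none. The mitosis and replication lists lie almost wholly to the left, at medians of -5.12 and -3.89, and the FOXO and quiescence list holds no blue point.

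Regulators of G1, the phase before DNA synthesis, moved in both directions. Of 32 tested, 14 fell and 2 rose, shares of 43.75% and 6.25% against 13.7% and 12.4% of all genes. Ccne1, the cyclin that partners CDK2 at the start of S phase, stood at 2800.3, 2014 and 2226 in large Pre-B cells and 26.3, 28.6 and 28.7 in small Pre-B cells (a log2 change of -6.33 ± 0.21 (SE), adjusted p = 2.99e-06). Ccnd2, the D-type cyclin that answers to interleukin 7, stood at 3676, 4385 and 4319.9 in large Pre-B cells and 263, 196 and 323 in small Pre-B cells (a log2 change of -4.01 ± 0.20 (SE), adjusted p = 5.32e-06). Ccnd3, the D-type cyclin that large Pre-B cells depend on, was lower without reaching 4-fold, at 50734, 52086 and 61884 in large Pre-B cells and 17062, 17678 and 19039 in small Pre-B cells (a log2 change of -1.61 ± 0.17 (SE), adjusted p = 0.000129). Both groups of each cyclin stayed apart. E2f7 and E2f8, repressors that are themselves switched on in S phase, fell with log2 fold changes of -5.32 and -5.37, and E2f1, an activator, with -2.42. Of the inhibitors of cyclin-dependent kinases, Cdkn2c (p18) fell from 4223 ± 477 to 259.9 ± 23.9 and Cdkn1a (p21) had -2.31, or -1.83 under the length and GC correction. Cdkn1b (p27), the inhibitor of resting cells, was higher without a large change, from 254 ± 43.4 to 577 ± 48 (a log2 change of 1.19 ± 0.20 (SE), adjusted p = 0.00132). The G1 genes that rose were the antiproliferative Btg1, from 2658 ± 609 to 47874 ± 1939.5, and Btg2, from 7087 ± 1782 to 34952 ± 1331.

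In the MYC and MAX network, which sets growth and biosynthesis genes, 3 of 12 members fell and 3 rose. Each direction held 25%, against 13.7% lower and 12.4% higher over all genes. Myc itself (chromosome 15, 61985341 to 61990361) stood at 1967, 1853 and 2571 in large Pre-B cells and 22.8, 47.3 and 24.1 in small Pre-B cells (a log2 change of -6.10 ± 0.32 (SE), adjusted p = 6.4e-06). Its relative Mycn was low throughout, at 60.7, 105 and 68.7 in large Pre-B cells and 32, 13.3 and 12.1 in small Pre-B cells, and it lay at the 4-fold mark (a log2 change of -2.07 ± 0.49 (SE), adjusted p = 0.00705), under it with TMM, same-total and quantile scaling and without large Pre-B control replicate 2 (-1.84) or small Pre-B control replicate 2 (-1.89) or 3 (-1.83). The partners that bind MAX in place of MYC divided. Mxd3, known from S phase, fell from 3038 ± 669 to 62.7 ± 4.81. Mxd4 and Mnt, which oppose MYC in resting cells, rose from 677 ± 81.6 to 3118 ± 146 and from 36.2 ± 25.4 to 314 ± 20.1. Mlxip (MondoA), a glucose-sensing relative, rose from 2245 ± 533 to 9668 ± 287, short of 4-fold without large Pre-B control replicate 3 (1.97). Calls among the MYC antagonists therefore went both ways.

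The surrogate light chain genes fell and the conventional light chain genes rose. Vpreb1 (chromosome 16, 16868401 to 16869255) stood at 2867, 2927 and 3680.0 in large Pre-B cells and 97.6, 89.9 and 142 in small Pre-B cells (a log2 change of -4.85 ± 0.22 (SE), adjusted p = 3.56e-06). Igll1 (chromosome 16, 16860671 to 16863985), which encodes the lambda5 chain, stood at 9987, 8561 and 13147 in large Pre-B cells and 81.6, 163 and 150.4 in small Pre-B cells (a log2 change of -6.35 ± 0.29 (SE), adjusted p = 3.56e-06). Vpreb2, nearly identical to Vpreb1 and therefore uncertain where reads were split between them, stood at 161, 291 and 416 in large Pre-B cells and 6.28, 0 and 0.574 in small Pre-B cells. Transcripts of these genes are under 1000 bases long, a class whose median gene was higher in small Pre-B cells, as given below. Vpreb3, which helps the assembly of the receptor and is not part of the surrogate light chain, went the other way, from 9819 ± 2649.9 to 36155 ± 1569 (log2 fold change 1.92), just under 4-fold. It was past 4-fold with TMM (2.03), same-total (2.17) and quantile scaling (2.23), without rescaling (3.33) and without large Pre-B control replicate 3 (2.08), and stood at 0.92 under the length and GC correction.

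Of the 32 genes of the pre-B cell receptor and its near signalling, 5 fell and 1 rose, shares of 15.6% and 3.12%, close to the background of 13.7% and below that of 12.4%. Apart from the surrogate light chain, those that fell were Zap70, a kinase related to SYK, at 271, 236 and 468 in large Pre-B cells and 7.99, 20 and 22.4 in small Pre-B cells, and Lat, an adaptor better known from T cells, at 136, 255 and 446 in large Pre-B cells and 7.99, 14 and 9.76 in small Pre-B cells. The member that rose was Cd79a, from 14447 ± 1093 to 70215 ± 1355. Cd79b, its partner, was higher by less than 4-fold (log2 fold change 1.21), as was Syk, the kinase that the receptor engages, with 1.07. Blnk, the adaptor that links SYK to its targets, had 26151, 17823 and 10864 in large Pre-B cells and 21777, 20343 and 22143 in small Pre-B cells and its groups overlapped. Ighm, the mu heavy chain, had 279970.0, 222541 and 133063 in large Pre-B cells and 304942, 310615 and 309460.0 in small Pre-B cells. Its fold change did not pass the test (a log2 change of 0.61 ± 0.37 (SE), adjusted p = 0.184), and the lowest value was again that of replicate 3.

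**Figure D2:**
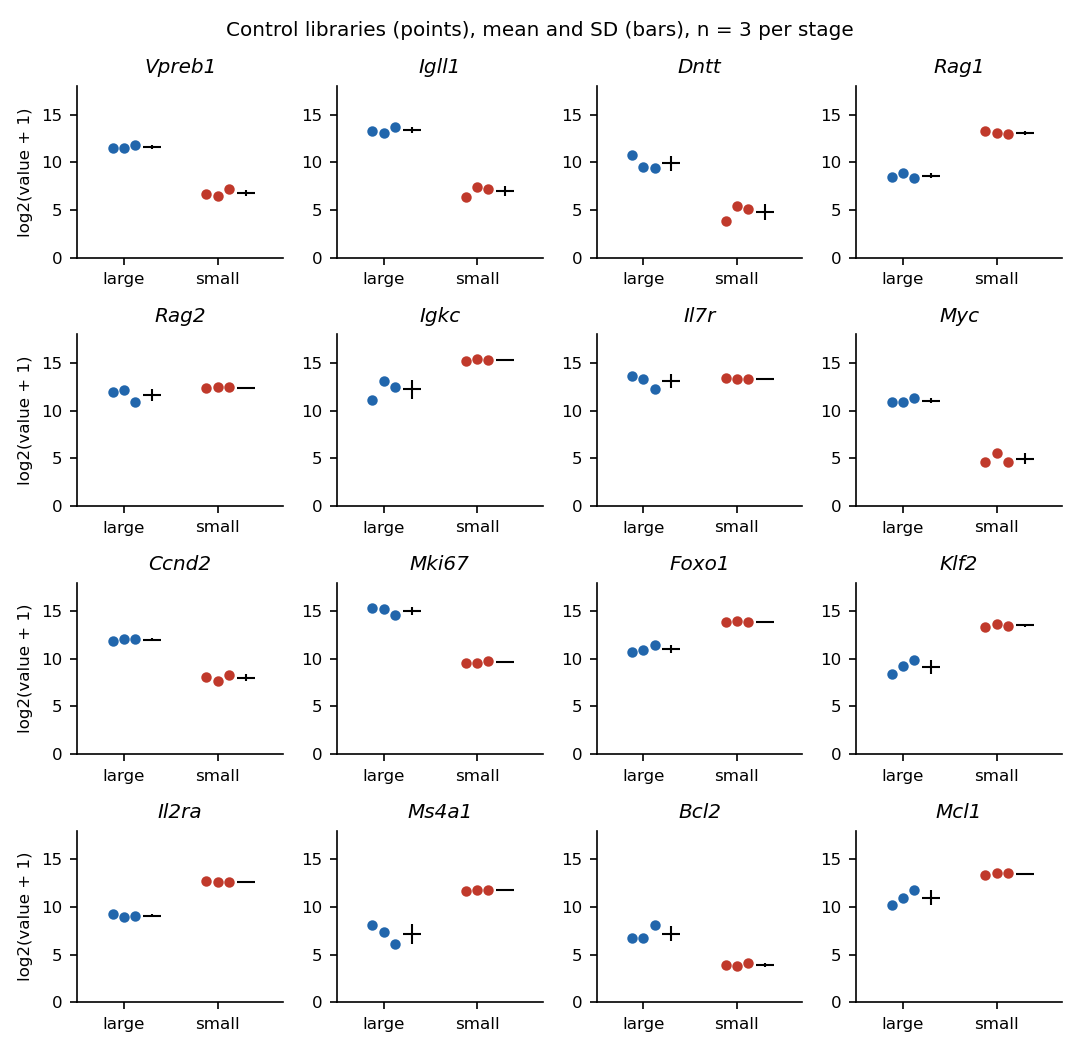
Log2(value + 1) of genes of the receptor, recombination, growth and survival (y axis, the same range in each panel) in the 3 large (blue) and 3 small (red) Pre-B control libraries (points, replicates 1 to 3 from left to right), with the mean and SD beside them. Vpreb1, Igll1, Dntt, Myc, Ccnd2, Mki67 and Bcl2 are lower in all 3 small Pre-B libraries, whereas Il7r overlaps between the stages.

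Among genes of the interleukin 7 and STAT5 axis, 6 of 22 rose and 4 fell, shares of 27.3% and 18.2% against 12.4% and 13.7% of all genes. Il7r, the receptor chain that gives the cytokine its specificity, did not pass the test, with 12718, 10043 and 4783 in large Pre-B cells and 10627, 10365 and 10150.1 in small Pre-B cells (a log2 change of 0.29 ± 0.33 (SE), adjusted p = 0.468). The feedback inhibitors of the pathway split. Socs1 rose, with 106, 180.1 and 197 in large Pre-B cells and 2955, 2969.7 and 2858 in small Pre-B cells (a log2 change of 4.23 ± 0.24 (SE), adjusted p = 9.03e-06). Cish, a classic STAT5 target, rose from a low level, with 10.1, 15.7 and 5.45 in large Pre-B cells and 98.8, 75.2 and 111 in small Pre-B cells. Socs2, another STAT5 target, fell, with 1049, 770.2 and 1238 in large Pre-B cells and 178, 186 and 142 in small Pre-B cells (a log2 change of -2.57 ± 0.23 (SE), adjusted p = 6.9e-05), and Socs3 had 20.2, 34.2 and 4.36 in large Pre-B cells and 16, 13.3 and 17.8 in small Pre-B cells, with overlap. The survival kinase Pim2 rose from 1340.4 ± 169 to 11993 ± 409 (SD, n = 3 and 3).

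Survival genes of the BCL2 family moved in both directions, with 4 of 15 tested members rising and 2 falling. These are shares of 26.7% and 13.3%, against 12.4% and 13.7% of all genes. Bcl2, which protects cells from death, stood at 108, 109 and 277 in large Pre-B cells and 14.3, 12.7 and 16.7 in small Pre-B cells (a log2 change of -3.27 ± 0.46 (SE), adjusted p = 0.000583). Mcl1, the protector that interleukin 7 supports, stood at 1150.2, 2015 and 3477 in large Pre-B cells and 10473, 12239.6 and 11936 in small Pre-B cells (a log2 change of 2.52 ± 0.35 (SE), adjusted p = 0.000582). Bcl2l1, which encodes BCL-XL, was higher by less than 4-fold, from 2694 ± 440.1 to 9695 ± 464, and past 4-fold with same-total and quantile scaling (2.11 each) and the length and GC correction (2.21). Of the killers, Bbc3 (PUMA) had 3.37, 1.85 and 6.54 in large Pre-B cells and 176, 244 and 187 in small Pre-B cells and Bmf had 83.1, 85.9 and 85 in large Pre-B cells and 1458, 1182 and 1491 in small Pre-B cells, so both rose, by log2 fold changes of 5.47 and 4.00. Bcl2l11 (BIM) overlapped between the stages, at 621, 734 and 419 in large Pre-B cells and 736, 740.4 and 714 in small Pre-B cells. Bok, a relative of the killers BAX and BAK, was at 0 in all 3 small Pre-B libraries against 143, 198 and 283, at least 115-fold lower when each small Pre-B library is given 3 reads. Bcl2l14 rose by the test (a log2 change of 3.85 ± 1.39 (SE), adjusted p = 0.0421), but 1 large Pre-B library, replicate 1, had 44.9 and overlapped the small Pre-B values of 52, 43.9 and 57.4. Its call was lost with edgeR (1.82, adjusted p = 0.282), DESeq2 (1.76, adjusted p = 0.313), quantile scaling, no filter and other pseudocounts, and without any single library but large Pre-B control replicate 1 (adjusted p = 0.099 to 0.148).

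The recombinase genes did not move together. Rag1 (chromosome 2, 101638252 to 101649532), the catalytic subunit, stood at 356, 469 and 328 in large Pre-B cells and 10182, 8325 and 7892 in small Pre-B cells (a log2 change of 4.52 ± 0.18 (SE), adjusted p = 3.07e-06). Rag2, its cofactor from the neighbouring gene, stood at 3844, 4513 and 1933 in large Pre-B cells and 5116, 5546 and 5499.7 in small Pre-B cells (a log2 change of 0.74 ± 0.29 (SE), adjusted p = 0.0583), with no overlap but below the 4-fold mark and short of the threshold. Dntt, terminal transferase, which adds untemplated bases to heavy chain joins, fell, with 1782, 713 and 680.2 in large Pre-B cells and 13.1, 41.9 and 32.2 in small Pre-B cells (a log2 change of -5.13 ± 0.53 (SE), adjusted p = 0.000129). Of 20 recombination and end joining genes, 6 fell and Rag1 was the one that rose, shares of 30% and 5% against 13.7% and 12.4%. Those that fell include Hmgb2, a DNA-bending cofactor of RAG that is also a gene of dividing cells, from 92022 ± 19229.6 to 8395 ± 755, H2afx, the histone variant marked at breaks, from 14761 ± 3011 to 1554 ± 144, and Nbn, a break sensor, from 1728 ± 59.1 to 79.4 ± 18.1.

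Light chain transcripts rose at every constant region tested. Igkc, the kappa constant gene, stood at 2187, 8897 and 5578 in large Pre-B cells and 37882, 41989 and 39530.1 in small Pre-B cells (a log2 change of 3.06 ± 0.45 (SE), adjusted p = 0.000725), with a spread of over 4-fold among the large Pre-B libraries. Iglc1, Iglc2 and Iglc3 are lambda constant genes of similar sequence, so their split is uncertain. Iglc1 had 199.9, 62.8 and 277 in large Pre-B cells and 18825, 20162 and 15780.1 in small Pre-B cells and Iglc3 had 32.6, 54.5 and 201 in large Pre-B cells and 15223, 16767 and 14545 in small Pre-B cells, at log2 fold changes of 6.89 and 7.75. All 3 lambda variable segments rose, and 93 of 97 kappa variable segments rose, with a median of 5.89. Igkv8-16, for example, had 0, 1.85 and 2.18 in large Pre-B cells and 622, 708 and 621 in small Pre-B cells. Kappa variable segments took 0.000652 to 0.00416% of reads in large and 0.0717 to 0.0806% in small Pre-B libraries.

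Heavy chain variable segments, which are joined before the large Pre-B stage, were also all higher. All 99 tested segments rose, with a median of 5.04, and their share went from 0.00276 to 0.00484% to 0.115 to 0.127% of reads, while Ighm did not pass the test. Every one of these segments is annotated at under 1000 bases (median 353), and short transcripts as a class were higher in the small Pre-B libraries. Over all 511 tested genes whose longest transcript is under 500 bases, the median log2 fold change was 4.52, and 82.8% rose. Between 500 and 1000 bases the median was 1.08, and above 1000 bases it lay between -0.12 and 0.05. GC content mattered as well. The 560 tested genes with at least 60% GC had a median of 1.01, with 28.4% higher and 5.89% lower by a large change. Classes of lower GC had medians of -0.09 to 0.58. When each gene's change was taken relative to genes of like length and GC content, the median of heavy chain segments became 1.39 with 22 of 99 called, that of kappa segments 2.25 with 47 called, and Igkc 0.92, past no threshold. The lambda constant genes kept 4.13 (Iglc1) and 4.92 (Iglc3). Because the segments are themselves a large part of the shortest genes, this correction also takes out change that they share. Stage and table cannot be told apart here, since each stage is a deposited table of its own.

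**Figure D3:**
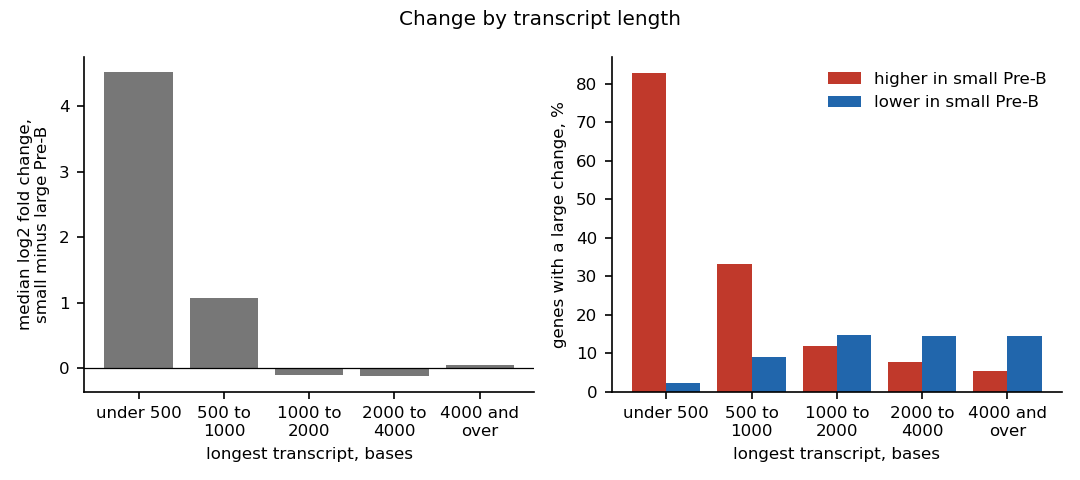
Median log2 fold change from large to small Pre-B cells (left, y axis) and percent of genes with a large change in each direction (right, y axis) by the length of the gene's longest annotated transcript in bases (x axis). The shortest class stands at 4.52 with 82.8% higher, and the 3 classes above 1000 bases lie near 0.

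The same dependence touches 4 other lists of short transcripts. Of 79 cytosolic ribosomal protein genes, 13 rose and 3 fell, shares of 16.5% and 3.8% against 12.4% and 13.7% of all genes. Their median of 0.51 turned to -0.05 after the length and GC correction. Those that rose most were Rps27, Rps29, Rpl38, Rps28 and Rpl37a, whose transcripts are 390 to 558 bases long. Rps29 went from 156 ± 30.5 to 2134 ± 154, and its log2 fold change of 3.78 became 0.39. As a share of reads, ribosomal protein genes took 0.99 to 1.74% in large and 1.2 to 1.34% in small Pre-B libraries, ranges that overlap. Nuclear genes of oxidative phosphorylation had 10 of 76 higher, led by the small subunits Atp5k and Ndufa3, and none lower. The share of 13.2% higher was close to the 12.4% of all genes, and the median of 0.57 became -0.42. Mitochondrial genome transcripts had a median of 2.06 that became -0.22, led by the serine transfer RNA mt-Ts1 and by mt-Atp8, with 71.9, 29.6 and 21.8 in large Pre-B cells and 2361, 2585 and 2116 in small Pre-B cells for mt-Atp8. Clustered histone genes divided evenly, 8 up and 8 down of 50, and 3 and 23 after the correction. Before it each direction held 16%, near the 12.4% and 13.7% of all genes. The histone median of -0.22 turned to 0.08 when libraries were scaled to the same total.

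No gene on the 5 biosynthesis lists rose. Of 30 nucleotide synthesis genes, 16 fell (53.3%, against 13.7% of all genes) and none rose, with a median of -2.11. Tyms, thymidylate synthase, stood at 4292, 4223 and 4627 in large Pre-B cells and 86.2, 104 and 112 in small Pre-B cells (a log2 change of -5.44 ± 0.16 (SE), adjusted p = 2.91e-06). Atic, which closes the purine ring system, fell from a mean of 940.4 ± 445 to 79.2 ± 9.2 (SD, 3 libraries each). The list of serine, one-carbon and amino acid supply held 27 tested genes, of which 13 fell (48.1%). Shmt1 and Mthfd1, cytosolic enzymes that carry serine carbon into nucleotides, fell from 3849.8 ± 144 to 83.7 ± 12.1 and from 5995 ± 388 to 179.8 ± 24.4. Psat1, of serine synthesis, had a log2 fold change of -3.83, and Slc7a5, the importer of large neutral amino acids, had 787, 1067 and 2443 in large Pre-B cells and 296, 306 and 255 in small Pre-B cells. The change of Slc7a5 was short of 4-fold with same-total scaling (-1.90), the length and GC correction (-1.92) and without large Pre-B control replicate 3 (-1.68).

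In glycolysis 6 of 24 genes fell (25%, against 13.7% of all genes) and none rose, and the median was -1.57. Ldha, the lactate dehydrogenase of growing cells, had 46656, 42779 and 47513 in large Pre-B cells and 3535, 4057 and 3924 in small Pre-B cells (a log2 change of -3.57 ± 0.13 (SE), adjusted p = 3.07e-06). Gapdh, often used as a reference gene, fell from 24615 ± 2017 to 2854 ± 269 (SD, n = 3 and 3), with a log2 fold change of -3.11. Hk2, the inducible hexokinase, ranged from 82 to 342 in large Pre-B cells and did not reach 4-fold (a log2 change of -1.90 ± 0.53 (SE), adjusted p = 0.0151). It was past 4-fold with edgeR (-2.13), DESeq2 (-2.17), quantile scaling (-2.05) and without large Pre-B control replicate 1 (-2.51) or small Pre-B control replicate 1 (-2.01). Ribosome biogenesis genes were lower in smaller steps, 69 of 75 below 0 in log2 fold change but 11 by a large change, a share of 14.7% against 13.7% of all genes. Ncl, the nucleolar protein nucleolin, led them, from 37955 ± 897 to 5267 ± 97.6, followed by Rrp1b, Nop58, Gnl3 and Npm1 at log2 fold changes of -2.80 to -2.59. Sterol and fatty acid synthesis had 8 of 33 lower, a share of 24.2%. Sqle, squalene epoxidase, fell from 1144 ± 308 to 77 ± 24.4.

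Of 50 transcription factors of the B lineage tested, 9 rose and 3 fell, shares of 18% and 6% against 12.4% and 13.7% of all genes, and the median was 0.81. Foxo1, which drives the Rag genes and is held back by growth signals, stood at 1629, 2006 and 2750.2 in large Pre-B cells and 14339, 16026 and 15007 in small Pre-B cells (a log2 change of 2.86 ± 0.20 (SE), adjusted p = 2.03e-05). Klf2, a factor of quiescence and exit from the marrow, stood at 338, 607 and 939 in large Pre-B cells and 10585, 13056 and 11446 in small Pre-B cells (a log2 change of 4.33 ± 0.33 (SE), adjusted p = 3.41e-05). Klf13 and Klf3, of the same family, had log2 fold changes of 3.62 and 3.57. Ebf1, a founding factor of the lineage, had 3884, 10446 and 7813 in large Pre-B cells and 30346, 29394 and 28009 in small Pre-B cells and lay at the 4-fold mark (a log2 change of 2.10 ± 0.33 (SE), adjusted p = 0.00103), just under it with edgeR and DESeq2 (2.00 and 1.96) and lower without large Pre-B control replicate 1 (1.69). Pax5, the commitment factor, had 2297, 2351 and 1625 in large Pre-B cells and 2585, 2591 and 3043 in small Pre-B cells and missed the threshold (a log2 change of 0.41 ± 0.17 (SE), adjusted p = 0.0752).

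Factors known from the light chain stage were already present in large Pre-B cells. Irf4 had 9834, 7816 and 4202 in large Pre-B cells and 10319, 9101 and 9073 in small Pre-B cells and Irf8 had 7239.5, 9417 and 7877 in large Pre-B cells and 10883, 11911 and 11585 in small Pre-B cells, neither a large change, and the groups of Irf4 overlapped. Ikzf1 and Ikzf3, which restrain division downstream of the receptor, were higher by less than 4-fold, with log2 fold changes of 1.47 and 1.26 (adjusted p = 0.000166 and 0.000309). Spib had 1.65 and Bach2, a repressor of plasma cell genes, 1.71, and the length and GC correction took both past 4-fold (2.06 and 2.29), as did quantile scaling for Bach2 (2.01). Of those that fell, Tox stood at 127, 67.4 and 73 in large Pre-B cells and 1.71, 0 and 2.87 in small Pre-B cells, and Ikzf2, the Ikaros relative of T cells, at 82, 60 and 210.4 in large Pre-B cells and 2.28, 12.7 and 2.87 in small Pre-B cells. Id3, an inhibitor of E proteins, and Lef1, a factor of the earlier precursor, were lower by less than 4-fold, at log2 fold changes of -0.62 and -1.07.

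Targets of FOXO factors and genes of quiescence had no member that fell. Of 33 tested, 13 rose, 39.4% against 12.4% of all genes, with a median of 1.48. Ypel3, a gene of growth arrest, stood at 1855, 2128 and 2594 in large Pre-B cells and 22018, 21404 and 20535 in small Pre-B cells (a log2 change of 3.29 ± 0.15 (SE), adjusted p = 3.78e-06). Zfp36l1, which destabilises messages with AU-rich ends and holds back division in B precursors, stood at 149, 365 and 343 in large Pre-B cells and 2477, 2520.2 and 2608 in small Pre-B cells (a log2 change of 3.25 ± 0.33 (SE), adjusted p = 0.000115). Fbxo32 (atrogin), a FOXO target of many tissues, rose from 122 ± 28.9 to 1052 ± 104 (SD, n = 3 and 3). Several of these are shared with other lists, since Klf2, Btg1 and S1pr1 stand in more than 1.

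Surface genes of immature and mature B cells rose in 15 of 38 cases and fell in 1, with a median of 1.39. These are shares of 39.5% and 2.63%, against 12.4% and 13.7% of all genes. Il2ra (CD25), the usual marker of small Pre-B cells (chromosome 2, 11642792 to 11693194), stood at 619, 490.4 and 550.5 in large Pre-B cells and 6691, 6288 and 6452 in small Pre-B cells (a log2 change of 3.55 ± 0.13 (SE), adjusted p = 3.07e-06). Ms4a1, which encodes CD20, stood at 275, 171 and 66.5 in large Pre-B cells and 3326, 3503 and 3424 in small Pre-B cells (a log2 change of 4.54 ± 0.45 (SE), adjusted p = 0.000113). Ltb, which encodes lymphotoxin beta, stood at 40.4, 78.5 and 83.9 in large Pre-B cells and 2414, 2266 and 2423 in small Pre-B cells (a log2 change of 5.18 ± 0.29 (SE), adjusted p = 7.99e-06). Small Pre-B libraries lay close together for each of these, and the large Pre-B libraries were spread more widely for Ms4a1. Cd40, the receptor for T cell help, and Cd83, its companion on activated B cells, had log2 fold changes of 4.21 and 4.49, and Ly6d, a lineage marker, rose from 2198 ± 596 to 51268 ± 2177. Cd93, on which the gate was set, was higher by less than 4-fold, from 2619 ± 415 to 7155 ± 496. Cd22, an inhibitory co-receptor, was lower at -0.75 (adjusted p = 0.00705).

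Of 17 genes of MHC class II presentation, 4 rose and 1 fell, shares of 23.5% and 5.88% against 12.4% and 13.7% of all genes. Cd74, the invariant chain, rose from 5064 ± 1386 to 24594 ± 4653, and H2-Oa and H2-DMb2, which edit the peptide loaded, had log2 fold changes of 3.11 and 2.69. Ciita, the master regulator of MHC class II genes, stood at 2002, 1618 and 1089 in large Pre-B cells and 329, 334 and 490.4 in small Pre-B cells, so it fell, at the 4-fold mark (a log2 change of -2.01 ± 0.26 (SE), adjusted p = 0.00042). It was under that mark with TMM, same-total and quantile scaling and without large Pre-B control replicate 1 (-1.81) or 2 (-1.96) or small Pre-B control replicate 1 (-1.91) or 2 (-1.92). The class II chains H2-Aa and H2-Ab1 were lower by less than 4-fold, with 4747, 3981 and 2648 in large Pre-B cells and 1435, 1510.1 and 2064 in small Pre-B cells for H2-Aa and log2 fold changes of -1.16 and -1.06. In the homing receptor list 5 of 16 rose and 2 fell (31.25% and 12.5%). S1pr1, the receptor by which lymphocytes leave tissue for blood, had 895, 594 and 185 in large Pre-B cells and 3857, 4016 and 3779 in small Pre-B cells (a log2 change of 3.07 ± 0.51 (SE), adjusted p = 0.00126). Cnr2, the cannabinoid receptor that holds immature B cells in marrow sinusoids, rose from 65.5 ± 31.7 to 1736 ± 14.8, and S1pr3 from 16.2 ± 6.17 to 551 ± 34.6. Cxcr4, which keeps precursors in the marrow, was higher by less than 4-fold (log2 fold change 0.83), and Ccr7 overlapped between the stages.

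Of 19 precursor stage surface genes, 2 rose (Il2ra and Ly6d) and 3 fell. These shares, 10.5% and 15.8%, were close to the 12.4% and 13.7% of all genes. Enpep (BP-1), a marker of large Pre-B cells, fell from 3712 ± 717 to 293 ± 131 (SD, n = 3 and 3). Cd34 and Flt3, of early progenitors, fell from low levels, Flt3 from 83.2 ± 40.3 to 16.9 ± 1.26. Flt3 was short of 4-fold with same-total scaling (-1.88), the length and GC correction (-1.70), a pseudocount of 10 (-1.71) and without large Pre-B control replicate 3 (-1.77). Type I interferon response genes had 5 of 33 higher and 2 lower, shares of 15.2% and 6.06% against 12.4% and 13.7% of all genes. Mx2, an antiviral GTPase, was at 0 in 2 large Pre-B libraries and at 39.7 in the other, against 71.9 to 122 in small Pre-B cells. Its call was lost with edgeR (adjusted p = 0.0932), DESeq2 (0.273) and without large Pre-B control replicate 1 or small Pre-B control replicate 1 or 3 (0.0538 to 0.058). Isg15 and Rtp4, also called higher, lost the call without large Pre-B control replicate 1 (1.35 and 1.53) or any small Pre-B library, Isg15 also without large Pre-B control replicate 2 and with edgeR and DESeq2, and Rtp4 with DESeq2. Ifi27l2a stood at 0.58 under the length and GC correction. Immediate early and stress genes had 5 of 21 higher and 6 lower, shares of 23.8% and 28.6%. Their median of 0.42 turned to -0.10 without large Pre-B control replicate 1. Hspa1a, an inducible heat shock gene, had 50.5, 1640.1 and 1765 in large Pre-B cells and 11.4, 16 and 23.5 in small Pre-B cells, so that large Pre-B replicate 1 stood apart from the other two. Hsp90aa1 fell from 28241 ± 12308 to 3792 ± 384. Nr4a1, which antigen receptor signals induce, had 93.2, 70.2 and 78.5 in large Pre-B cells and 38.8, 30 and 36.7 in small Pre-B cells and no large change.

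The genes with the greatest falls included 3 members of the plasma cell list. Igha, the constant region of IgA, stood at 7594, 37626 and 8438 in large Pre-B cells and 15.4, 32 and 9.76 in small Pre-B cells (a log2 change of -9.54 ± 0.66 (SE), adjusted p = 2.06e-05). Jchain, the joining chain of secreted IgA and IgM, stood at 1030.0, 6066 and 1646 in large Pre-B cells and 2.85, 7.32 and 13.8 in small Pre-B cells (a log2 change of -8.12 ± 0.73 (SE), adjusted p = 6.89e-05). Ighg2b, an IgG constant region, stood at 3459, 11521 and 11146 in large Pre-B cells and 1.71, 22 and 37.3 in small Pre-B cells (a log2 change of -9.16 ± 0.96 (SE), adjusted p = 0.00014). Igha and Ighg2b encode isotypes other than IgM, and the gate was set on CD93, surface IgM and cKIT. In large Pro-B controls, as levels with no test, Igha had 0 to 1086 and Jchain 55.2 to 200. Ighg2b had 5395 to 11211 there, much as in large Pre-B cells. Of 8 tested markers on the plasma cell list the other 5 did not fall. Xbp1, Sdc1 and Irf4 had log2 fold changes of -0.08, 0.39 and 0.47, Mzb1 had 1.05, and Prdm1, the regulator of plasma cell fate, rose from 20.7 ± 6.33 to 194 ± 8.26. Tnfrsf17, the plasma cell receptor BCMA, was at 0 to 20.7 in every library. The list as a whole took 0.111 to 0.325% of reads in large and 0.101 to 0.11% in small Pre-B libraries. The part of plasma cells in the values of Igha, Jchain and Ighg2b was not tested.

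The other genes of the lowest 10 were Smyd2, Pdcd1, Bok, Dctd, Ankle1, Ccnf and Nefh. Ccnf, an F-box protein of G2, and Ankle1, a nuclease of dividing blood cells, were high in large Pre-B cells, at 16981 and 6799, and fell to 106 and 44. Pdcd1, which encodes the inhibitory receptor PD-1, was at 0 in all 3 small Pre-B libraries and at 254, 234 and 368 in large ones, at least 158-fold lower. Smyd2, a lysine methyltransferase, stood at 374, 495 and 913 in large Pre-B cells and 5.71, 0 and 0 in small Pre-B cells. Dctd, the deaminase that feeds thymidylate synthesis, stood at 147, 317 and 283 in large Pre-B cells and 2.28, 0 and 0 in small Pre-B cells.

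The highest 10 were Iglc1, Iglc2 and Iglc3, the signal recognition particle RNAs Rn7s1 and Rn7s2, Tmsb10, Bach2os, Dmrt3, Col5a3 and Jund. Rn7s1 and Rn7s2, near-identical and 300 bases long, went from 6.27 to 0.70 and 0.69 under the length and GC correction (adjusted p = 0.619 and 0.621), so their calls were lost. Tmsb10, a thymosin that binds actin monomers, stood at 84.2, 90.5 and 76.3 in large Pre-B cells and 16711, 21013 and 16654 in small Pre-B cells (a log2 change of 7.74 ± 0.15 (SE), adjusted p = 8.53e-07). Jund, an AP-1 transcription factor, stood at 184, 513 and 1385 in large Pre-B cells and 37334, 41713 and 34961 in small Pre-B cells (a log2 change of 6.22 ± 0.62 (SE), adjusted p = 0.000112). Under the length and GC correction Jund (67.1% GC) stood at 4.91 and Col5a3 (61.6% GC) at 5.74. In large Pro-B controls, in a table of their own, Tmsb10 had 69.8 to 312 and Jund 216 to 1645, below every small Pre-B library. Col5a3, a fibrillar collagen chain, stood at 349, 235 and 173 in large Pre-B cells and 20974, 17504 and 16455 in small Pre-B cells, while the stromal collagens Col1a1 and Col1a2 were at or below 38.2 in every library. Bach2os, which is antisense to Bach2, rose from 13.8 ± 3.67 to 1166 ± 102, and the libraries do not tell the strand of its reads from that of Bach2.

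Markers of other cells were tested where they passed the filter on low values. Large changes downward were found in 1 of 7 neutrophil and monocyte, 1 of 2 erythroid, 4 of 5 T and NK, 2 of 6 plasmacytoid dendritic, 1 of 1 basophil and 1 of 3 stromal markers, and in none of the megakaryocyte (1) and mature B cell (8) markers. Of the mature B cell markers, 2 rose, and 1 dendritic marker did. Over all genes 13.7% fell. Of the 3 stromal markers 2 were higher, and that list took 0.0107 to 0.0216% of reads in large and 0.0339 to 0.0378% in small Pre-B libraries. The megakaryocyte list took 0.000746 to 0.00128% and 0.00246 to 0.0032%. Shares of the erythroid, T and NK and basophil lists were lower in small Pre-B libraries, without overlap. Nkg7, a T and NK marker, overlapped between the stages. Its call was lost with edgeR and DESeq2 (adjusted p = 0.127 and 0.109). Leaving out large Pre-B control replicate 2 or 3 or small Pre-B control replicate 1 or 3 also lost it. Klrb1c, of the same list, was short of 4-fold with quantile scaling (-1.70), the length and GC correction (-1.81) and a pseudocount of 10 (-1.48). It was also short of 4-fold without large Pre-B control replicate 1 (-1.75). Without small Pre-B control replicate 2 its call was lost (adjusted p = 0.051). Hdc, the basophil marker tested, lost its call with quantile scaling (adjusted p = 0.0702). Neutrophil and monocyte markers took 0.00188 to 0.0441% of reads in large and 0.00474 to 0.00966% in small Pre-B libraries, and Lyz2, lysozyme, stood at 79.8, 7875 and 1299 in large Pre-B cells and 6.28, 89.2 and 9.19 in small Pre-B cells. Its fall passed the test (a log2 change of -5.64 ± 1.64 (SE), adjusted p = 0.0179) but the groups overlapped, and without large Pre-B control replicate 2 the adjusted p was 0.0635. The call was also lost without small Pre-B control replicate 1 or 3. Mpo, of granulocyte precursors, was highest in replicate 2 of each stage, at 905 and 716. Cd3e, which defines T cells, was at 0 in small and at or below 7.86 in large Pre-B cells. The haemoglobin genes Hba-a1, Hba-a2, Hbb-bs and Hbb-bt were at or below 17.3 in every library. Lck and Car2, on the T cell and erythroid lists, were abundant in large Pre-B cells and fell from 4843 ± 822 to 396 ± 87.6 and from 5766 ± 389 to 505 ± 41.3. Siglech, of plasmacytoid dendritic cells, had 153, 83.1 and 50.1 in large Pre-B cells and 2.85, 0 and 0 in small Pre-B cells. On that list 3 tested markers were higher and 3 lower, and Cox6a2 rose (log2 fold change 4.08). The list took 0.0473 to 0.0537% of reads in large and 0.0828 to 0.0875% in small Pre-B libraries. The basophil markers Mcpt8 and Cpa3 were at 0 in every small Pre-B library. The part of such cells in the other results was not tested, and Cd79a was high in every library.

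Control large Pro-B cells (n = 4), put on the same scale, show where each gene stood before, as levels with no test. Replicates 1 to 3 carry the same mouse numbers as the large Pre-B controls, and replicate 4 a number of its own. Dntt had 24957 to 81906 there, so its level was already far lower in large Pre-B cells. Igll1 had 31387 to 40207 and Vpreb1 9022 to 13719.7, and these were lower at each later stage. Myc had 5537 to 11166, above every large Pre-B library, and Ccnd2 6853 to 12176. Mki67 had 8388 to 35310.0. In each of the 3 shared mice it was lower in Pro-B than in large Pre-B cells, at 28494 against 40908, 35310.0 against 36849 and 19532 against 24102. Rag1 had 75.4 to 623 and Rag2 1537 to 5679.7, and every small Pre-B library lay above that range of Rag1. Foxo1 had 1603 to 4245, and in the shared mice it was higher in Pro-B cells, at 2688 against 1629, 4245 against 2006 and 3907 against 2750.2. Igkc, Il2ra and Klf2 stood at 312 to 429.7, 11 to 51 and 55.2 to 249.5, each highest in the small Pre-B libraries.

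**Figure D4:**
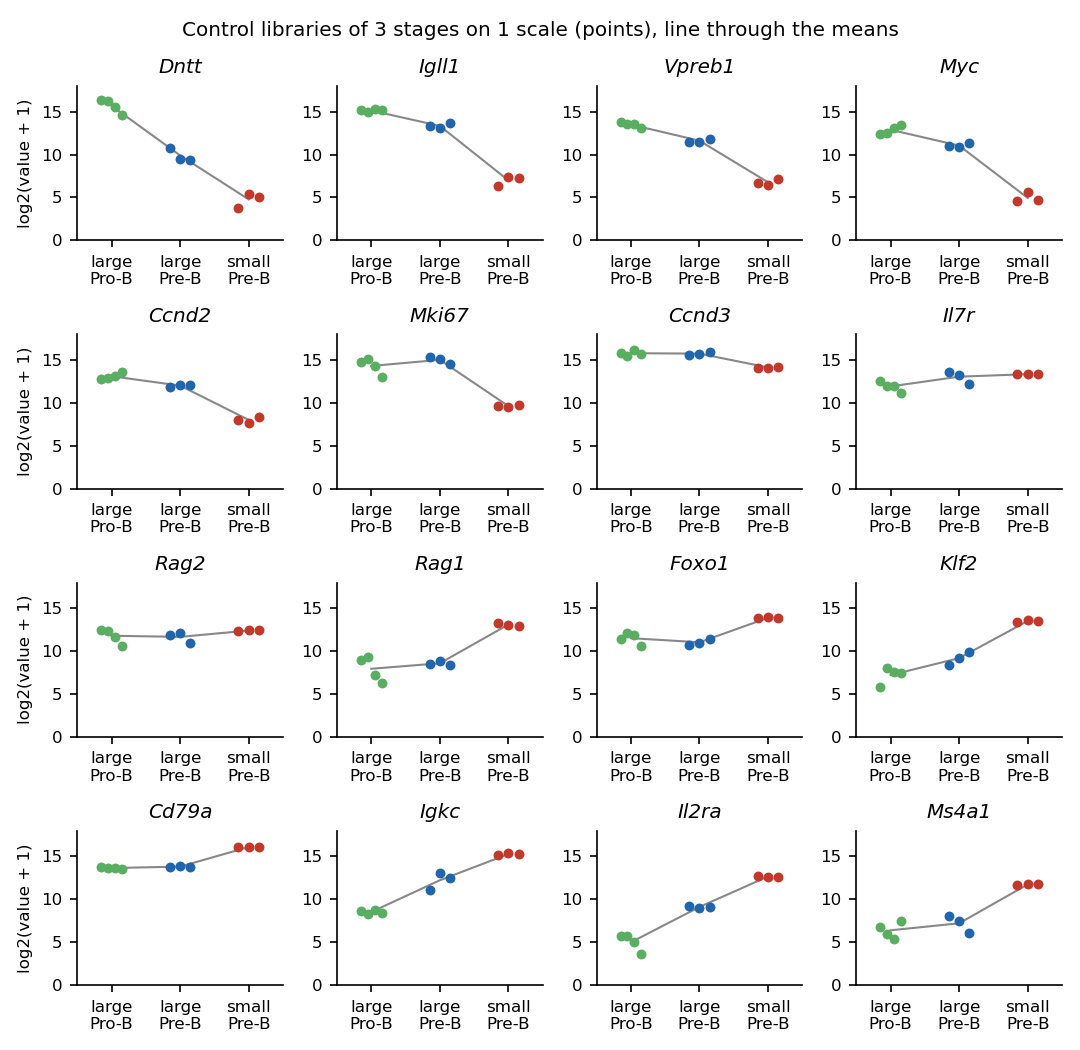
Log2(value + 1) (y axis, the same range in each panel) in control large Pro-B (n = 4, green), large Pre-B (n = 3, blue) and small Pre-B libraries (n = 3, red), with a grey line through the means of the log2 values. Dntt is lower at each step, Myc and Mki67 drop between large and small Pre-B cells, and Rag1, Foxo1 and Cd79a stand highest in small Pre-B cells.

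The same step was then compared with that of tet-LIN28B mice, to ask whether it differs with the transgene. Of 16288 genes tested for a difference between the genotypes' changes, 1 passed an adjusted p under 0.05 (0.00614% of genes tested) with limma, and 1233 had an unadjusted p under 0.05. With edgeR 1299 had an unadjusted p under 0.05 and 1 passed. The gene was Myc. Large Pre-B libraries had similar values of Myc in both genotypes, 1967, 1853 and 2571 in controls and 2075, 2942, 2143 and 2042 in tet-LIN28B mice. In small Pre-B cells controls had 22.8, 47.3 and 24.1 and tet-LIN28B mice 195, 269 and 287, with no overlap. On the log2 scale the change was -6.10 in controls and -3.20 in tet-LIN28B mice, a difference of -2.91 ± 0.37 (SE, adjusted p = 0.0172). The call was lost when any of 7 of the 13 libraries was left out, among them large Pre-B control replicate 3, with adjusted p up to 0.103. Mthfd2, a mitochondrial one-carbon enzyme, was among several genes at the next adjusted p, with a difference of -1.13 ± 0.22 (SE, adjusted p = 0.184), and was chosen after its values were seen. Among the 3853 genes with a large change in controls, 3825 had the same sign of change in tet-LIN28B mice, whose libraries are other mice but come from the same tables. Whatever differs between the tables enters the changes of both genotypes, so this count does not measure how alike the genotypes' steps are. Its share over all genes was not computed.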

How the data were processed

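Libraries were prepared, per the labels, with the SMART-Seq v4 kit followed by Nextera XT. The study names 2 sequencers but not which library ran on which. STAR 2.7.1 alignment to mm10, RSEM 1.28 quantification and DESeq2 normalization were the authors' steps, from the submitters' processing notes. The sources used here do not give the annotation. Each deposited signal value is thus a read count over its library's size factor, and every stage has a table of its own. All values (100%) came out as whole reads within 0.1 read, which gave the depths. Floors of 3 reads cover counting error only.

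The 23699 symbols in both Pre-B tables were joined and rescaled by the median of ratios over the 6 control libraries. limma 3.58.1 (R 4.3.3, trend) was fitted to log2(value + 1) over genes with at least 10 in at least 3 libraries, a scale that understates the change of low genes. Adjusted p is Benjamini-Hochberg, and SE that of the fit. edgeR 4.0.16 and DESeq2 1.42.0 on the recovered counts were alternatives. The genotype test used all 13 Pre-B libraries in 1 model. Replicate numbers do not pair the mice, and deviations of same-numbered libraries correlated at 0.07, 0.05 and -0.02. Large Pro-B levels used the same reference. Coordinates and start sites are from RefSeq (GRCm38.p6), and lengths from GENCODE transcripts. Length and GC were corrected with a smooth fit (mgcv 1.9.3).

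Members, lists and tests were chosen with earlier results of these data known. Named genes are a panel, the 10 highest and 10 lowest large changes with a group mean of at least 200 and no overlap (without predicted genes or receptor segments), up to 5 large changes of greatest size per list, and genes past the genotype test. Other list members named, chiefly markers of other cells, were picked after their values were seen. The fits were tested on simulated data. Some items withheld for evaluation are not reported here.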

Additional observations from a re-analysis of the deposited data

Results flagged for a closer look

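The change of Myc from large to small Pre-B cells differed between the genotypes by -2.91 on the log2 scale (controls minus tet-LIN28B), by a test of that difference. The call was lost when certain single libraries were left out, with adjusted p up to 0.103 in the same limma test.

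Some symbols were found in a single Pre-B table and therefore in no comparison. Of the 14152 listed for large Pre-B cells alone, 254 reached at least 10 in all 3 controls. All 14152 together took 0.253% of the control signal of their table. For small Pre-B cells alone, 47 of 2396 symbols reached it, and all 2396 together took 0.0117%. The 254 include genes known from other tissues such as Itgb6, an epithelial integrin. The 47 include kappa and heavy chain segments such as Igkv4-90 and Ighv1-23. They were named after their values were seen.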

How the results depend on the processing

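The stages are separate tables, mice and depths, and the joint scale assumes that the median gene is level. That median was 0.05 on the log2 scale, and shifted to 0.18 with TMM, 0.33 with the same total per library, 0.14 with quantile normalization, -0.19 with no filter and 0.20 with the length and GC correction. Short transcripts and low values are the least certain, and p-values measure the spread between 3 mice a stage. Without rescaling between tables the median was 1.51, with 5391 higher and 918 lower. A pseudocount of 10 gave 1219 higher genes, no filter 3136 lower, and the causes were not tested. A filter of at least 100 gave 944 higher and 898 lower, and genes with transcripts of at least 1000 bases (added after seeing the data) held 1032 higher, where fewer genes were tested. Without a fold threshold 4615 were higher and 4594 lower, at 2-fold 3494 and 3413, and at 8-fold 1079 and 1325. Leaving out 1 library at a time gave 1698 to 2162 higher and 2095 to 2482 lower. The replicate block gave 1880 and 2038, and all large changes remained under it. On the recovered whole reads edgeR called 1689 higher and 2038 lower, and DESeq2 1645 and 2113. In the other alternatives the counts stayed within 1.5 times. No gene with a large change turned sign in any alternative but 1, the length and GC correction (added after seeing the data), under which 122 of the higher genes tested again did. Of the named genes, Atp5e went to -0.47, mt-Atp8 to -1.78, mt-Nd3 to -0.72, mt-Nd6 to -0.40, mt-Tq to -6.56 and mt-Ts1 to -5.44. The cause was not tested. The genotype difference had 1 call, 2 with a pseudocount of 10, and 0 to 5 with a library left out.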
